A study of Mus musculus and Ictidomys tridecemlineatus with 36 samples.

Results

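The clustered protocadherins are cell-surface adhesion proteins of the cadherin superfamily, and in the mouse their genes lie in 3 neighbouring clusters, alpha, beta and gamma, on chromosome 18. Members were taken as the protein-coding genes of GENCODE release M21 on that chromosome whose symbol is *Pcdha*, *Pcdhac*, *Pcdhb*, *Pcdhga*, *Pcdhgb* or *Pcdhgc* followed by a number. This gave 57 of 21938 protein-coding genes, with 14 in the alpha, 22 in the beta and 21 in the gamma cluster. All lie on the plus strand of GRCm38, between chr18:36930184-37187661 for alpha, chr18:37264938-37524479 for beta and chr18:37661793-37841873 for gamma. The symbol *Pcdha11* stands for 2 genes in this release, and the first of them starts 117 bp from the RefSeq start of *Pcdha10*. *Pcdhgb8*, annotated as a polymorphic pseudogene, is not a member, and no peak of any target lay within 1 kb of its start.

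The data are CUT&RUN peak lists, in which an antibody directs cutting of the DNA around a histone mark or a bound protein, and the released fragments are sequenced. Retinas of postnatal day 2 (P2) mice were compared in the study with retinas of 13-lined ground squirrels, and the 5 mouse lists were used here. In mouse, H3K4me3, H3K27ac and H3K4me1 were each measured in 2 libraries, Neurod1 in 4, Otx2 in 8 with 4 from each of a pair of antibodies (R&D Systems and Atlas Antibodies), and the IgG control in 2. Every biological replicate was a pool of retinas from 3 mice, with 2 replicates per target, and the strain and genotype of these mice are not given in the sources used here. The authors called peaks once per target over all its libraries against IgG, so each peak has 1 fold enrichment over IgG and 1 q-value, with no spread between replicates and no known depth. No test between clusters or targets was therefore possible, and all values below are descriptions. The lists are of whole retina, where a peak in few cells and a weak peak in many cells cannot be told apart.

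In the alpha and gamma clusters, each gene contributes its own large variable first exon with its own promoter, which is spliced to a small set of constant exons shared by the whole cluster, whereas most beta genes have a single exon. Single neurons choose a few of the variable promoters, in a process known to need CTCF, cohesin and distant enhancers, and the resulting mixture of protein isoforms gives a cell a surface identity that its own processes recognise. In the retina, the gamma protocadherins are known for self-avoidance of the dendrites of starburst amacrine cells and for the survival of interneurons. The last variable exons of the alpha and gamma clusters, the C-type exons *Pcdhac1*, *Pcdhac2*, *Pcdhgc3*, *Pcdhgc4* and *Pcdhgc5*, are known to be used more broadly than the others. H3K4me3 marks promoters, H3K27ac marks active promoters and enhancers, and H3K4me1 marks enhancers and the flanks of promoters. Otx2 and Neurod1 are transcription factors of photoreceptor and bipolar cell development.

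Most clustered protocadherin promoters carried no peak. An H3K4me3 peak lay within 1 kb of the start of 7 of 57 members (12.3%), beside 52.7% of all protein-coding genes. An H3K4me1 peak lay at 6 members (10.5%, all protein-coding genes 57.6%) and an Otx2 peak at 3 members (5.26%, all protein-coding genes 47.0%). H3K27ac was called at 0 of 57 members, beside 15.8% of all protein-coding genes, and Neurod1 at 0 of 57, beside 4.23%. In all, 47 members (82.5%) had no peak of any of the 5 targets within 1 kb, against 34.9% of all protein-coding genes. Reads with a MAPQ of 30 or below had been removed by the authors. The variable exons of a cluster are known to be similar in sequence to one another, which was not measured here. Whether a single member has a peak, and above all the lack of one, is therefore uncertain. How much of the shortage of peaks goes with this filter was not tested.

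**Figure D1:**
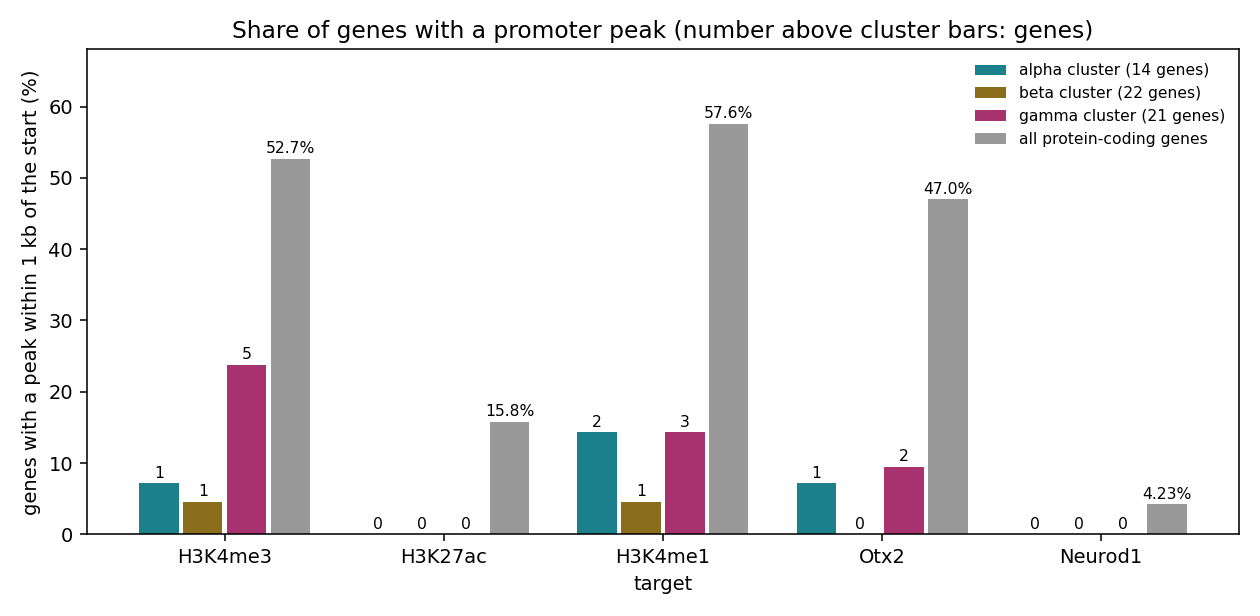
Share of the genes of each cluster, and of all protein-coding genes, with a peak within 1 kb of the start, for each of the 5 targets in P2 mouse retina. The y axis is in percent, and the numbers above the cluster bars count genes. Every cluster bar is below the grey bar of all protein-coding genes, and H3K27ac and Neurod1 have no cluster bar.

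The 3 clusters differed in their counts. Of the 14 alpha genes, 1 had H3K4me3, 2 had H3K4me1 and 1 had Otx2, and all of these peaks lay at C-type genes. Of the 22 beta genes, 1 had H3K4me3 and 1 had H3K4me1, at different genes, and none had Otx2. Of the 21 gamma genes, 5 had H3K4me3, which is 23.8%, 3 had H3K4me1 and 2 had Otx2. Members with no peak of any target numbered 12 in alpha, 20 in beta and 15 in gamma. With a −log10 q of at least 5, H3K4me3 was at 3 gamma and 0 beta genes and H3K4me1 at 1 alpha and 0 beta genes, and with the summit required in the window H3K4me1 was at 1 gamma gene. With 1 to 5 genes behind each count, these differences rest on few peaks.

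Most of the peaks at promoters were at the C-type genes. H3K4me1 was called at 5 of 5 C-type genes, beside 57.6% of all protein-coding genes, and at 3 of 5 with the summit required in the window (41.4% of all). H3K4me3 and Otx2 were each called at 3 of 5, near the shares of 52.7% and 47.0% of all protein-coding genes. Of the other 52 members, 4 had H3K4me3 (7.69%), 1 had H3K4me1 (1.92%) and 0 had Otx2. In the gamma cluster without its C-type genes, H3K4me3 was at 3 of 18 genes and the other 4 targets were at none. In the alpha cluster without its C-type genes, no target had a peak at any of the 12 genes.

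**Figure D2:**
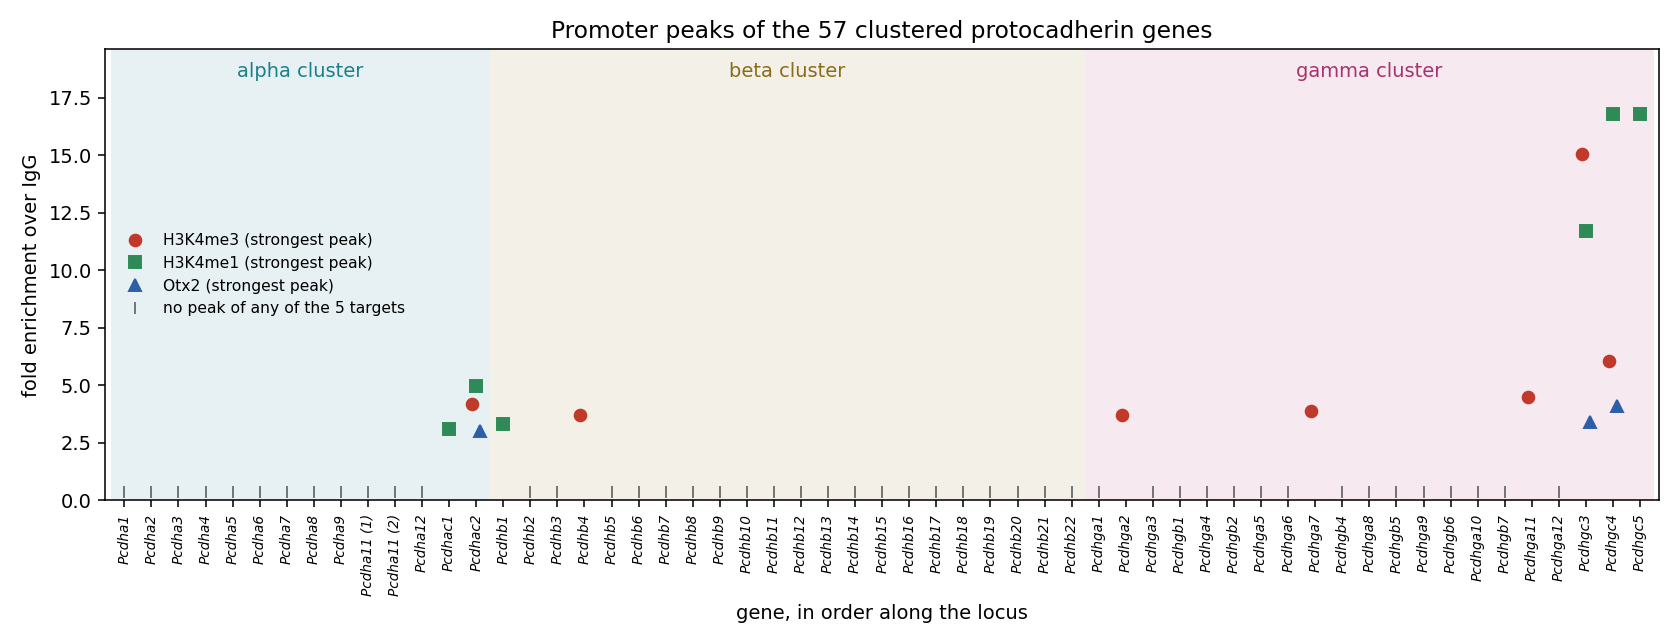
Fold enrichment over IgG of the strongest peak within 1 kb of the start of each of the 57 members, in their order along the locus, for H3K4me3, H3K4me1 and Otx2. Grey ticks at the bottom mark members with no peak of any target, and H3K27ac and Neurod1 have no point because they had no peak at any member. The highest values are at *Pcdhgc3*, *Pcdhgc4* and *Pcdhgc5*, and the 4 H3K4me3 peaks outside the C-type genes lie between 3.70 and 4.49.

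*Pcdhgc3*, the first C-type exon of the gamma cluster, had the strongest promoter mark of the family. Its H3K4me3 peak (chr18:37806089-37808661) was 2573 bp wide and 15.1-fold enriched (−log10 q 79.4), and its summit lay 353 bp downstream of the start, in the coding part of the first exon. Across all 11554 promoters with H3K4me3, the median fold enrichment was 17.6, and 41.7% had a lower value than *Pcdhgc3*. The H3K4me1 peak over it spanned 7330 bp with a fold enrichment of 11.7, above 92.2% of promoters with H3K4me1, and its summit lay 2950 bp downstream of the start. An Otx2 peak of 815 bp and 3.39-fold enrichment had its summit 135 bp downstream of the start. No other member had an H3K4me3 fold enrichment near the median of all promoters.

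*Pcdhgc4*, the next C-type exon, carried the same 3 targets. Its H3K4me3 peak had a fold enrichment of 6.06 over 1587 bp, with the summit 509 bp downstream of the start, and 11.9% of H3K4me3 promoters were lower. The H3K4me1 peak (chr18:37813461-37820030) reached 16.8-fold, above 98.2% of promoters with H3K4me1, and ran on over the start of *Pcdhgc5*. Since its summit lay nearer to *Pcdhgc4*, the call of H3K4me1 at *Pcdhgc5* came from this shared peak and not from one of its own. The Otx2 peak at *Pcdhgc4* was 1423 bp wide with a fold enrichment of 4.11, the highest of the 3 Otx2 peaks at members, and the median over all Otx2 promoters was 3.92. *Pcdhgc5*, the last variable exon, had neither H3K4me3 nor Otx2 within 1 kb.

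In the alpha cluster, *Pcdhac2* had the 3 targets at lower values. Its H3K4me3 peak was 4.17-fold enriched over 988 bp with a −log10 q of 8.11, close to the 5th percentile of all H3K4me3 promoters, which was 4.11. The stronger of its H3K4me1 peaks was 2897 bp wide and 4.95-fold enriched, near the median of 5.13 over all H3K4me1 promoters, and the weaker one was 2.24-fold over 336 bp. Its Otx2 peak was 3.02-fold enriched with the summit 123 bp downstream of the start. *Pcdhac1*, the other alpha C-type gene, had H3K4me1 alone, at 3.08-fold over 1020 bp. No value of the alpha C-type genes reached that of *Pcdhgc3* or *Pcdhgc4* for the same target.

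Outside the C-type genes, 5 members had a peak, and each had a peak of 1 target only. *Pcdhb1*, the first beta gene, had H3K4me1 alone, 3.29-fold over 502 bp, with the summit 27 bp downstream of the start. *Pcdhb4*, *Pcdhga2*, *Pcdhga7* and *Pcdhga11* had H3K4me3 alone. *Pcdhga11* had the strongest of these, 4.49-fold over 548 bp with a −log10 q of 7.08. The peak at *Pcdhga7* was 3.86-fold over 269 bp with a −log10 q of 3.67. Those at *Pcdhb4* (232 bp) and *Pcdhga2* (233 bp) had the same fold enrichment, 3.70, and the same −log10 q, 3.17. This pair of values occurred in 15 of the 14069 H3K4me3 peaks, and 5.76% of the list had a lower −log10 q. The widths were small beside other promoters, as 0.597% of H3K4me3 promoters had a narrower peak than *Pcdhb4* and 1.15% a narrower one than *Pcdhga7*. With a −log10 q of at least 5, *Pcdhga11* was the only one of the 4 to keep its call.

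H3K4me3 without any other target was uncommon elsewhere. It was the pattern of 237 protein-coding genes (1.08%), and of 4 members (7.02%). Of all 11554 promoters with H3K4me3, 86.6% also had H3K4me1, 85.0% Otx2, 27.4% H3K27ac and 7.37% Neurod1. Of the 7 members with H3K4me3, 3 also had H3K4me1, the same 3 also had Otx2, and 0 had H3K27ac or Neurod1. The set of H3K4me3, H3K4me1 and Otx2 without the other 2 targets, seen at *Pcdhac2*, *Pcdhgc3* and *Pcdhgc4*, was the pattern of 24.8% of protein-coding genes (5430). H3K4me1 alone, seen at *Pcdhac1*, *Pcdhb1* and *Pcdhgc5*, was that of 9.25% (2029).

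The summits of all 7 H3K4me3 peaks at members lay downstream of the start, by 57 bp at *Pcdhga2* to 509 bp at *Pcdhgc4*, with a median of 291 bp. Over all H3K4me3 promoters, 84.5% of summits lay downstream and the median was 212 bp. At the variable exons these positions fell inside the first exon, which is long in this family, with a median length of 2494 bp in alpha, 3634 bp in beta and 2608 bp in gamma. Starts follow each other closely, at a median of 7.32 kb in alpha, 7.78 kb in beta and 5.35 kb in gamma, but only the H3K4me1 peak over *Pcdhgc4* and *Pcdhgc5* lay within 1 kb of more than 1 member.

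The whole locus was then read from 100 kb before *Pcdha1* to 100 kb after the end of the gamma cluster, 1111.7 kb in all. It held 11 H3K4me3, 15 H3K27ac, 37 H3K4me1, 13 Otx2 and 2 Neurod1 peaks. Per 100 kb this was 0.989 for H3K4me3 (0.516 over all chromosomes), 1.35 for H3K27ac (2.31), 3.33 for H3K4me1 (4.98), 1.17 for Otx2 (1.07) and 0.18 for Neurod1 (0.174). Without the flanks, the 911.7 kb from *Pcdha1* to the end of gamma held 7 Otx2 and 0 Neurod1 peaks, or 0.768 Otx2 peaks per 100 kb, below the value over all chromosomes. In the same span H3K27ac fell to 0.768 and H3K4me1 to 2.63 per 100 kb, further below their values over all chromosomes. H3K4me3, at 0.987, stayed above its value. That is a density per length and not per gene. The span holds 57 member starts, of which 12.3% had H3K4me3, beside 52.7% of all protein-coding genes. Its 9 H3K4me3 peaks also include that of *Taf7* and an intergenic one between alpha and beta. The peaks were placed unevenly. A stretch of 335.0 kb from within *Pcdhb4* to *Taf7*, a gene for a general transcription factor subunit between beta and gamma, held no peak of any target and contained the starts of the 18 genes *Pcdhb5* to *Pcdhb22*. Another 259.6 kb, from the edge of the window to just before *Pcdhac1*, was also free of peaks and held the starts of the 12 variable alpha genes.

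**Figure D3:**
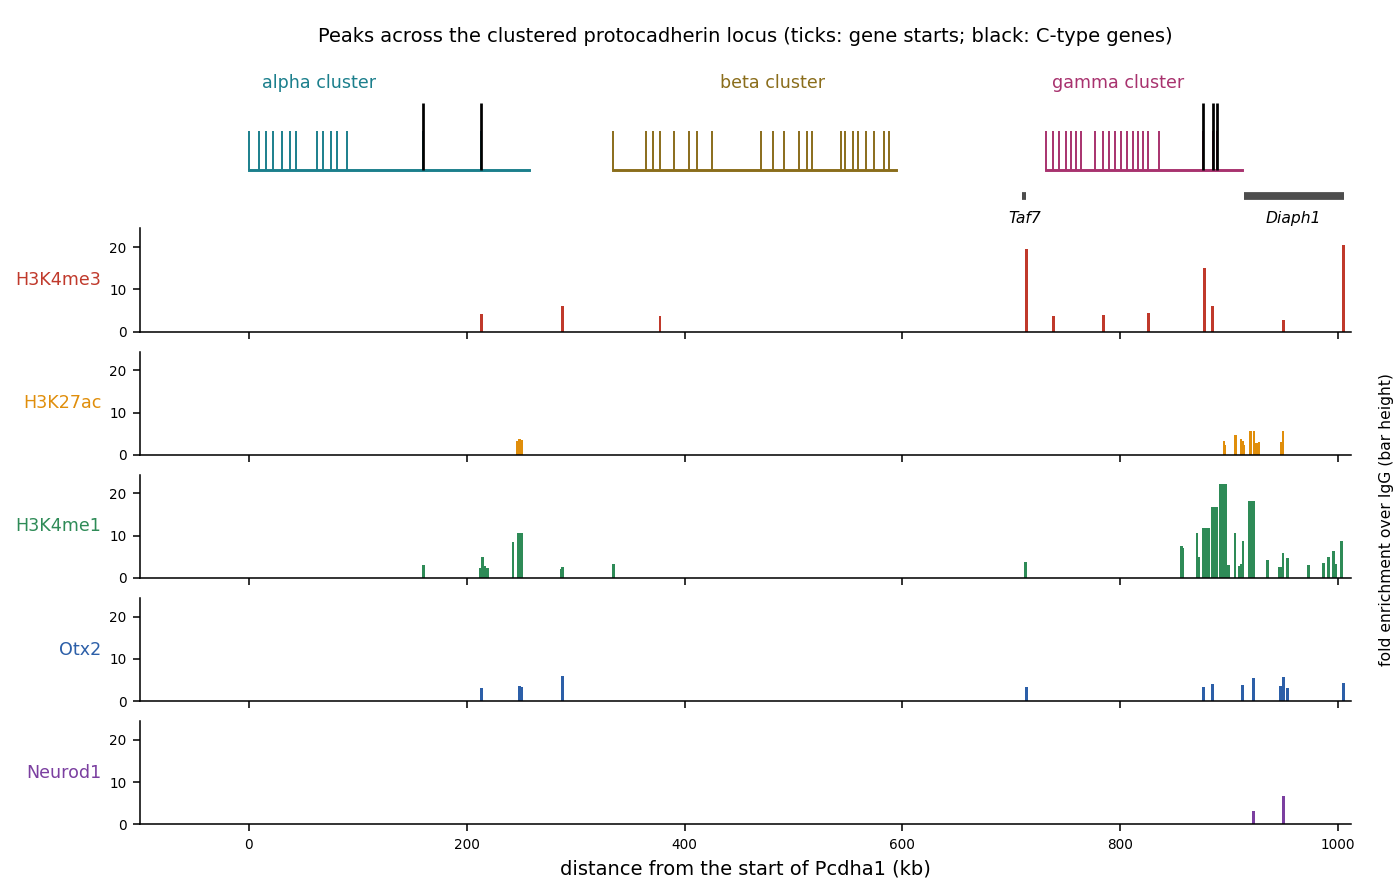
Peaks of the 5 targets across the locus, by distance from the start of *Pcdha1* in kb, with the fold enrichment over IgG as the height of the bars, which are drawn wider than the peaks so that narrow ones can be seen. The top row gives the gene starts of the 3 clusters as ticks, the C-type genes in black, and the genes *Taf7* and *Diaph1*. Peaks gather at the constant exon ends of the alpha and gamma clusters, and the variable alpha exons and most of the beta cluster are empty.

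Measured from the members' starts, the median distance to the nearest summit was shortest in the gamma cluster for each of the 5 targets. The median distance to an H3K4me3 summit was 141 kb in alpha, 120 kb in beta and 7.96 kb in gamma. For the gamma genes before the C-type, the nearest H3K4me3 summits were those at *Pcdhga2*, *Pcdhga7* and *Pcdhga11*. The peaks at *Pcdhga2* and *Pcdhga7* were weak (−log10 q 3.17 and 3.67), and the distances were not measured again without them. For H3K27ac it was 185 kb, 248 kb and 99.8 kb, and no member start lay closer than 6.05 kb to an H3K27ac summit. For Otx2 it was 141 kb in alpha, 143 kb in beta and 50.3 kb in gamma. Neurod1 was far from all of them, with the nearest start 33.1 kb away.

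Of the 15 H3K27ac peaks of the locus, 3 lay at the C-type and constant exons of alpha, 4 at those of gamma and 8 in the 100 kb after gamma, and none at a member promoter. In the alpha cluster, 3 H3K27ac peaks lay side by side in the last intron before the final constant exon, with summits 33.1 kb, 34.9 kb and 36.9 kb after the start of *Pcdhac2*. Their fold enrichments were 3.29, 3.79 and 3.59, beside a median of 3.36 over the whole H3K27ac list. They lay under a single H3K4me1 peak (chr18:37175977-37181761) of 5785 bp and 10.5-fold enrichment, and the last 2 also overlapped Otx2 peaks of 3.60-fold and 3.32-fold. A further H3K4me1 peak of 8.58-fold lay just before them with no other target. Enhancers of the alpha cluster are known from this end of the cluster, and these were the only H3K27ac peaks between *Pcdha1* and *Pcdhgc5*.

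**Figure D4:**
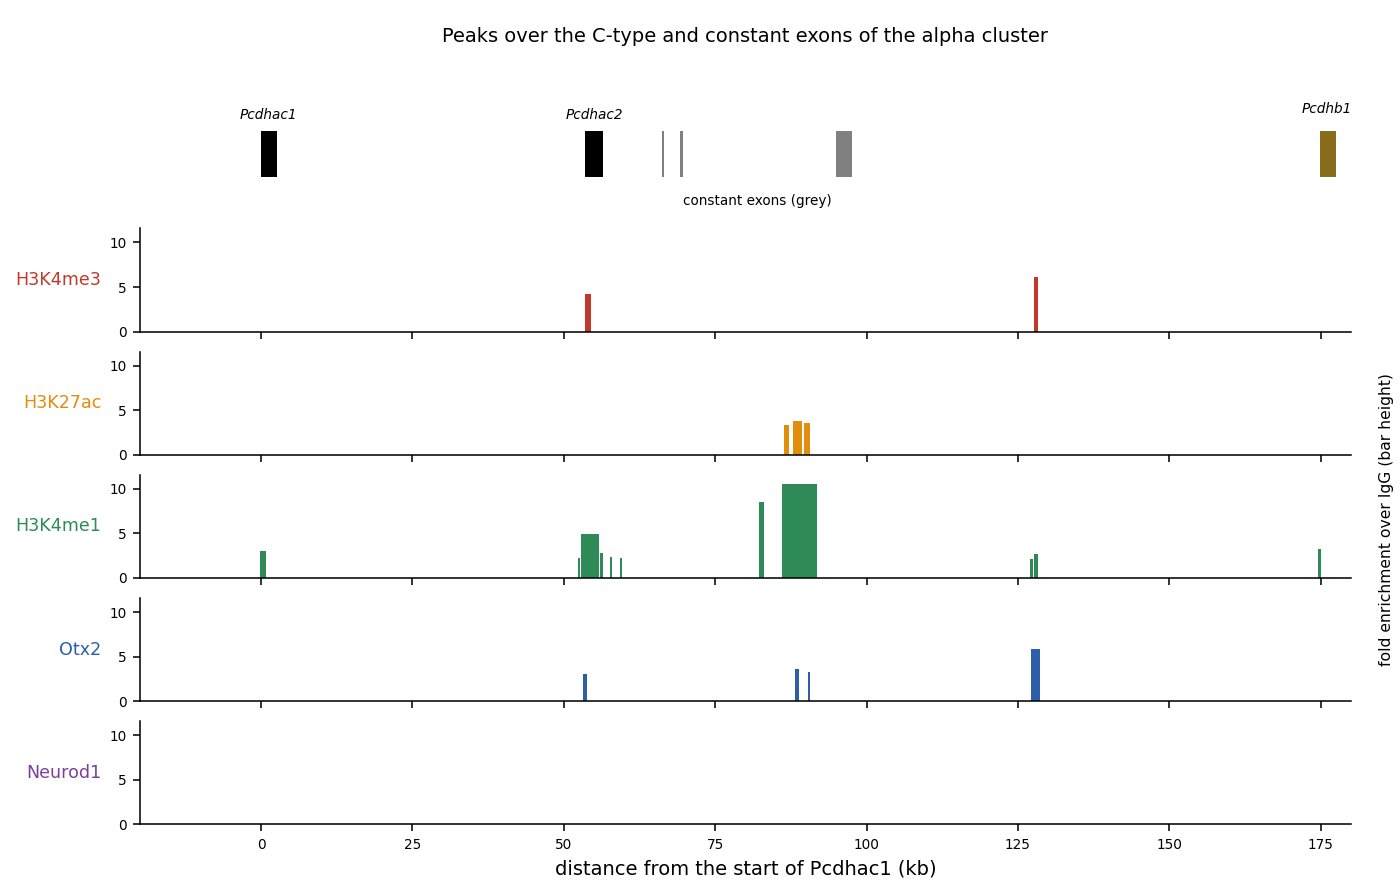
Peaks of the 5 targets over the C-type and constant exons of the alpha cluster, by distance from the start of *Pcdhac1* in kb, with the fold enrichment over IgG as the height of the bars. Black boxes are the C-type first exons, grey boxes the constant exons, and the brown box is *Pcdhb1*. H3K27ac is present only in the last intron, under the widest H3K4me1 peak, and the element between alpha and beta has H3K4me3 and Otx2 but no H3K27ac.

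Between the alpha and beta clusters, an intergenic site 30.5 kb after the end of alpha and 46.8 kb before *Pcdhb1* carried the strongest Otx2 peak of the locus. This Otx2 peak (chr18:37217227-37218650) was 5.85-fold enriched (−log10 q 28.4), and 85.9% of the Otx2 list was lower. An H3K4me3 peak of 6.08-fold and 694 bp lay at the same place, with a summit within the Otx2 peak, and H3K4me1 peaks of 2.69-fold and 2.16-fold overlapped it. The nearest members are the C-type and constant exons of alpha on one side and *Pcdhb1* on the other, and H3K27ac was not called there.

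In the gamma cluster, H3K4me1 was spread over the C-type and constant exons. In these 35.5 kb it had 8 peaks and covered 66.4% of the bases, against 6.49% over all chromosomes and 11.7% over the 97.6 kb of C-type and constant exons of the alpha cluster. The highest H3K4me1 peak of the whole locus (chr18:37821254-37828231) lay here, 6978 bp wide and 22.2-fold enriched with a −log10 q of 141, and 99.0% of the H3K4me1 list was lower. It ran from the end of the *Pcdhgc5* first exon over the second exon of the transcript into the following intron. H3K27ac had 4 peaks in the same stretch, of 3.33-fold, 2.30-fold, 4.62-fold and 3.84-fold, all downstream of the first exon of *Pcdhgc5* and all overlapping H3K4me1. Otx2 peaks lay only at *Pcdhgc3* and *Pcdhgc4* in this stretch, and none of the 4 H3K27ac peaks overlapped Otx2.

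Before *Pcdhgc3*, in the intron that follows *Pcdhga12*, 4 H3K4me1 peaks lay without any other target. Their fold enrichments were 7.52, 7.10, 10.7 and 4.87. They were the only H3K4me1 peaks with a summit among the variable exons of the gamma cluster, and all 4 were after the last of the 18 genes there.

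Past the end of the gamma cluster the marks went on into *Diaph1*, a formin gene that is read from the opposite strand towards the cluster. The highest H3K27ac peak of the locus, 5.67-fold and 2697 bp wide, had its summit 43.5 kb after the start of *Pcdhgc3*, in an intron of *Diaph1*, under an H3K4me1 peak of 18.2-fold and 5880 bp. Another H3K27ac peak, of 5.63-fold and 46.4 kb after the same start, overlapped both factors, Otx2 at 5.46-fold and Neurod1 with 3.04-fold enrichment. At 73.5 kb, all 5 targets met: H3K27ac was 5.56-fold enriched, H3K4me1 5.93-fold, Otx2 5.71-fold and Neurod1 6.79-fold, and the H3K4me3 peak was weak at 2.67-fold. These were the only 2 Neurod1 peaks of the locus. Enhancers of the gamma and beta clusters are known downstream of gamma, but a peak list does not assign an element to a gene, and *Diaph1* itself had H3K4me3 at 20.6-fold, the highest of the locus.

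**Figure D5:**
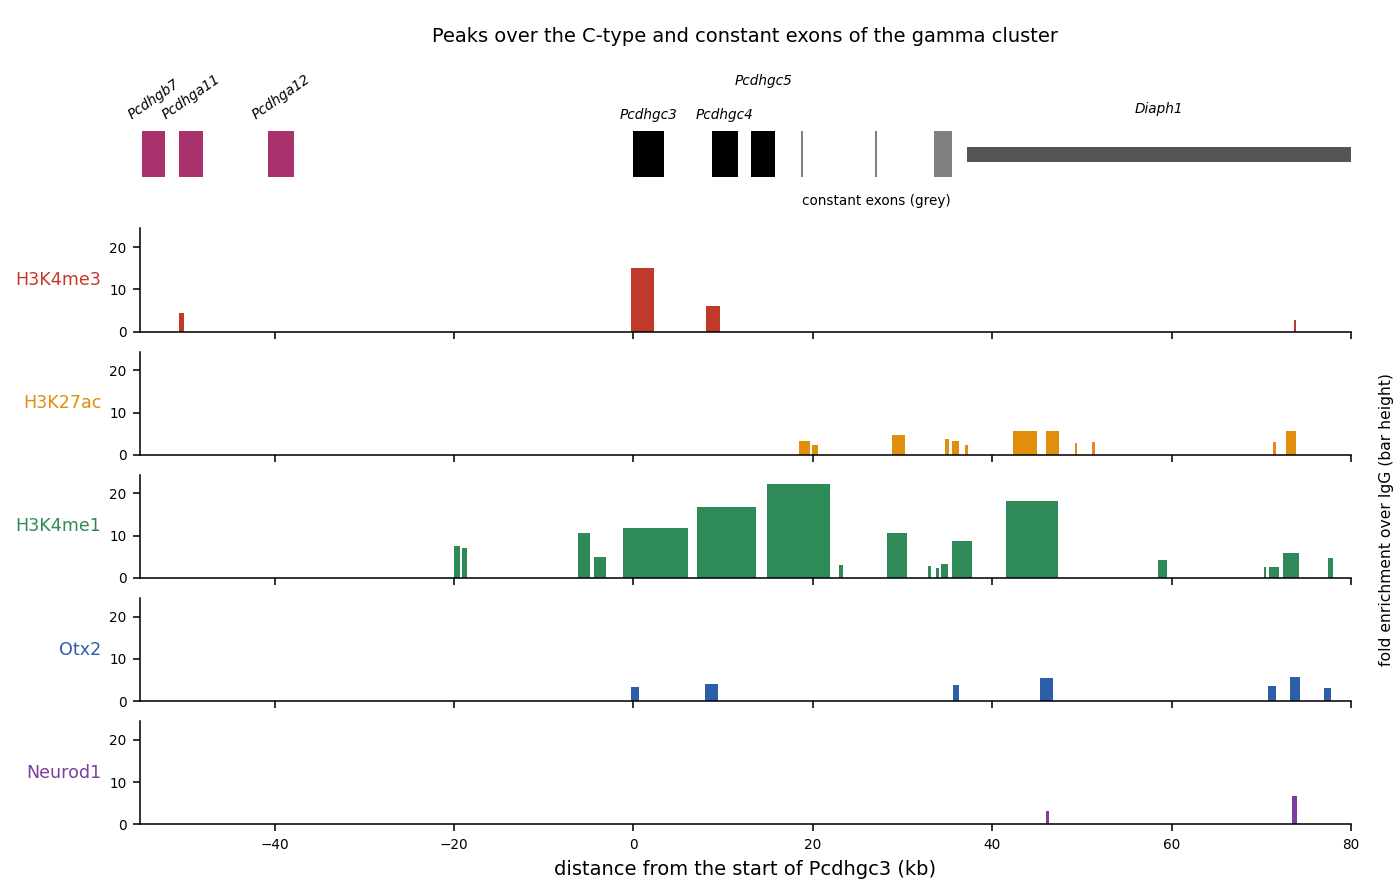
Peaks of the 5 targets over the C-type and constant exons of the gamma cluster and the adjoining part of *Diaph1*, by distance from the start of *Pcdhgc3* in kb, with the fold enrichment over IgG as the height of the bars. Black boxes are C-type first exons, coloured boxes the last variable exons before them, grey boxes the constant exons and the dark bar *Diaph1*. H3K4me1 spans the C-type exons, H3K27ac begins downstream of *Pcdhgc5*, and Neurod1 appears only inside *Diaph1*.

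Peaks were also sorted into classes adapted from those of the study, which were defined on accessible elements with a limit on average signal, neither of which was used here. A promoter peak was H3K4me3, an active enhancer peak was H3K27ac without H3K4me3, and a poised enhancer peak was H3K4me1 without either, the last condition being set here. The locus held 14 active and 23 poised peaks by this reading. The active ones were split into 3 in the alpha stretch of C-type and constant exons, 4 in that of gamma and 7 in the 100 kb after gamma. Most of those in the 2 stretches had their summits in introns. Among the variable exons before the C-type and the beta genes there were 0. Otx2 overlapped 2 of the 3 in alpha, 0 of the 4 in gamma and 3 of the 7 downstream, beside 11.0% of all such peaks. Of the poised peaks, 2 of 23 overlapped Otx2, beside 6.98% overall. Of the 13 Otx2 peaks, 6 overlapped H3K27ac and 12 overlapped H3K4me1, where the shares of the whole Otx2 list were 36.2% and 78.9%.

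Other genes of the superfamily, and of the machinery known to act on the clusters, were read in the same way. All 10 non-clustered delta protocadherins (*Pcdh1*, *Pcdh7* to *Pcdh10*, *Pcdh11x* and *Pcdh17* to *Pcdh20*) had H3K4me3 and H3K4me1, with a median H3K4me3 fold enrichment of 15.9, and 9 had Otx2. Their H3K4me3 values ran from 3.14-fold at *Pcdh20* and 3.25-fold at *Pcdh8* to 23.5-fold at *Pcdh11x*. The values of *Pcdh20* and *Pcdh8* were below the 5th percentile of all H3K4me3 promoters, 4.11. H3K27ac was at 0 of the 10, beside 15.8% of all protein-coding genes. For the other targets, the shares of all protein-coding genes were 52.7% (H3K4me3), 57.6% (H3K4me1) and 47.0% (Otx2). Of 10 other cadherin superfamily genes, 7 had H3K4me3, 4 H3K27ac, 8 H3K4me1 and 6 Otx2. Beside the same shares of all protein-coding genes, and with 10 genes, these counts say little about this list. *Cdh2*, the neural cadherin, was highest at 42.0-fold for H3K4me3. Of 12 regulators, 11 had H3K4me3 (all protein-coding genes 52.7%), with a median of 39.1-fold, and 6 had H3K27ac (all protein-coding genes 15.8%). *Ctcf* was at 48.2-fold, the cohesin subunit gene *Rad21* at 53.9-fold and the cohesin loader *Nipbl* at 72.7-fold, while *Stag1* had H3K4me1 and no H3K4me3.

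A pair of multi-copy families was added for comparison after values had been seen. Of 67 replication-dependent histone genes, 57 had H3K4me3 (85.1%, all protein-coding genes 52.7%), at a median of 8.0-fold. H3K27ac was at 31 of them (46.3%, all protein-coding genes 15.8%). How alike the copies are in sequence was not compared between families. Of 39 *Hox* genes, which are clustered too, 0 had H3K4me3, 19 had H3K4me1 (48.7%, all protein-coding genes 57.6%) and 6 had Otx2 (15.4%, all protein-coding genes 47.0%). The tissue label was checked with 8 genes of the P2 retina, of which 8 had H3K4me3, beside 52.7% of all protein-coding genes. The lowest was the gene *Otx2* at 3.10-fold, below the 5th percentile of 4.11. Of 8 genes of pigment epithelium, vessel, connective tissue, lens and immune cells, 1 had H3K4me3, *Mitf* at 6.63-fold. H3K4me1 was at 8 of the retina genes and at 3 of the others, *Mitf*, *Cdh5* and *Col1a1* (all protein-coding genes 57.6%). Otx2 peaks were at 5 of the retina genes and, of the others, at *Mitf* and *Col1a1* (all protein-coding genes 47.0%).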

How the data were processed

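Nuclei of snap-frozen P2 mouse retinas were profiled by CUT&RUN. The authors trimmed reads (cutadapt 3.5, Trim Galore 0.6.4), aligned them to GRCm38 with Bowtie2, removed those with a MAPQ of 30 or below with SAMtools 1.12, deduplicated them and merged technical replicates. For each target they called 1 set of peaks with macs2 from all its libraries (q-value 0.05), and removed blacklisted and mitochondrial regions. The deposited fold enrichment of a peak is a ratio of pooled signal to IgG, and the significance given by the authors is the −log10 of the q-value. Neither was rescaled, and read depth is unknown.

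A gene had a promoter peak where an interval shared at least 1 bp with the 1 kb on either side of its 5′ end in GENCODE M21. Summits gave positions. The background was all 21938 protein-coding genes outside the mitochondrial genome. Counts were made in Python 3.11.15 with numpy 2.4.6 and pandas 2.3.3, and plots were drawn with matplotlib 3.10.9. The counting step was checked against bedtools 2.31.1 on simulated peaks, with 0 genes differing. The locus was the span of the members with 100 kb on each side. No test was run, since each target has 1 pooled list.

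Named are the 5 C-type genes, the members of highest and lowest fold enrichment per cluster and target, members with or without a peak where these number 5 or fewer in a cluster, any with 4 or 5 targets (there were none), and the highest peak of each target elsewhere in the locus. Other peaks of the locus were singled out after their values were seen. The members and lists were chosen with earlier results of these data known. The 5 lists of 13LGS and promoter sequence features of the members were not analysed here. H3K27me3 and H3K9me3, for which the paper names antibodies, have no library among the samples of the series. All 57 members matched RefSeq genes by symbol. For the first gene named *Pcdha11*, however, the nearest RefSeq start was that of *Pcdha10*, 117 bp away.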

Additional observations from a re-analysis of the deposited data

How the results depend on the processing

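The 33 counts and medians compared, each under other settings, gave 181 values, of which 154 stayed within 1.5 times the count or within the spread between members. The counts of 0 for H3K27ac and Neurod1 at members stayed at 0 within 2 kb (17.2% and 4.92% of all protein-coding genes). They also did at any transcript start (22.6% and 5.76%). The other settings for promoter peaks only remove calls, so a 0 could not change there, and these values are among the 154. Members with no peak of any target, 12 in alpha, 20 in beta and 15 in gamma, rose to 14, 22 and 21 with equal numbers of peaks per target. That is every member, and the cluster sizes kept these counts from passing 1.5 times. With a −log10 q of at least 5, H3K4me3 was at 0 beta and 3 gamma genes and H3K4me1 at 1 alpha and 0 beta genes, beside 50.9% and 48.6% of all protein-coding genes. With the summit in the window, H3K4me1 was at 1 gamma gene and 3 C-type genes, beside 41.4% of all protein-coding genes. With the 4744 strongest peaks of each target, as many as the shortest list holds, H3K4me3, H3K4me1 and Otx2 were at 0 members in every cluster, C-type genes and the combination of the 3 included, and the shares of all protein-coding genes fell to 23.6%, 1.34% and 12.6%. In the locus, 0 kb of flank left 7 H3K27ac, 24 H3K4me1, 7 Otx2 and 0 Neurod1 peaks, 200 kb gave 20 H3K4me3, 60 H3K4me1 and 26 Otx2 peaks, and a −log10 q of at least 5 left 7 H3K4me3, 9 H3K27ac, 21 H3K4me1 and 1 Neurod1. The values compared are counts and medians without a sign, so none could reverse, and no conclusion is drawn from that. A wider window for promoter sequence features was not run. No paired analysis was possible because each target has 1 list over all its libraries, and for the same reason no replicate could be left out. Depth is unknown, so a missing peak says only that none was called.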
